A study of Mus musculus with 42 samples.

Results

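The comparison described here is intestine of unirradiated mice that carry a mutant p53 allele, AD, against intestine of mice without p53. The AD mice had the genotype p53 AD/-, the mutant allele over a null allele, and the Null mice are labelled p53-null. There were 3 libraries of each, AD-700, AD-701 and AD-702 and Null-859, Null-923 and Null-1087, which are 6 of the 42 RNA sequencing libraries of the series. All 6 mice were 4 weeks old, of mixed BALB/C and C57BL6 background, and were not irradiated. Each library came from one animal of a germline genotype, so the allele was present in every cell type of the tissue. The labels give neither sex nor harvest time of day, and they do not say which stretch of intestine was taken. The members are all genes of the table: 20011 of 49585 passed the filter on low counts and were tested.

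p53, encoded by Trp53, is a transcription factor that binds DNA as a tetramer and, in stressed cells, raises genes of cell cycle arrest, apoptosis and metabolism. The title of the series describes p53 dimers and an altered metabolic programme, and its design asks how mutant p53 tissues differ from p53-null tissues. The intestinal epithelium renews itself from crypt stem cells into absorptive enterocytes and secretory goblet, Paneth, enteroendocrine and tuft cells, and its proliferating crypts are known for a strong p53 response to radiation.

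The 6 libraries held 24.3e6 to 34.8e6 counts, and the 10 most abundant genes took 8.8 to 13.0% of them. Small intestinal markers were abundant: Fabp2, a fatty acid carrier of enterocytes, was at 2860, 2160 and 2240 CPM (counts scaled to library size) in AD and 3170, 1700 and 2940 CPM in Null. The ileal genes Fabp6 and Fgf15 had 2 to 9 and 0 counts per library, and the colonic gene Car1 had 0 or 1, all below the filter. Other regional markers were present and uneven between libraries. The 7 tested distal ileum genes summed to 708 to 1030 CPM in AD and 331 to 982 CPM in Null. The 7 tested colon genes summed to 320 to 928 CPM in AD and 193 to 528 CPM in Null. Pancreatic RNA was present in every library and differed widely within both genotypes. The summed level of 14 acinar cell genes was 997, 12300 and 119000 CPM in AD-700, AD-701 and AD-702, and 800, 64600 and 13900 CPM in Null-859, Null-923 and Null-1087. All 14 were tested, none was called, and their median log2 difference between AD and Null was 0.76. It was -1.99 without AD-702, 2.62 without Null-923, 1.33 without AD-700, 1.2 without AD-701, 0.18 without Null-859, 0.45 without Null-1087 and -0.83 with an Xist covariate, so these libraries give it no stable direction. The first principal component, with 43.6% of the variance, placed AD-702 and Null-923 at one end, at 38.6 and 46.0, and AD-700 and Null-859 at the other, at -45.9 and -35.5. Xist, the X inactivation transcript, was at 516 CPM in AD-702 and 305 CPM in Null-859 and at 1.42 to 7.32 CPM in the other libraries, so each genotype held 1 library with high Xist. Between any 2 libraries of a genotype, counts differed by more than counting error (chi-square per degree of freedom 37.2 to 244).

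**Figure D1:**
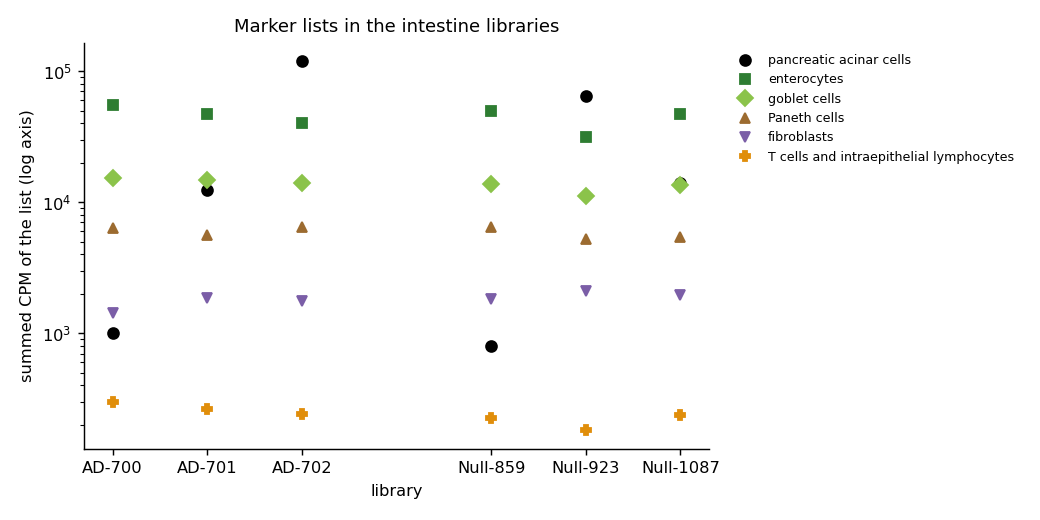
Summed CPM of 6 marker lists (log axis) in each intestine library, AD on the left and Null on the right. Pancreatic acinar genes span 997 to 119000 CPM in AD and 800 to 64600 CPM in Null, while enterocyte genes span 40200 to 55300 CPM in AD and 31600 to 49400 CPM in Null.

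Trp53 itself (ENSMUSG00000059552.13, plus strand, chr11:69580359-69591873 in GRCm38) gave 14.6, 15 and 15.7 CPM in AD and 9.52, 10.1 and 9.99 CPM in Null. Every AD library was above every Null library, yet the transcript was present in Null as well, and the difference was not called (log2 fold change 0.61 ± 0.10 SE, edgeR adjusted p = 0.199). It was called by DESeq2 (adjusted p = 0.00235), and by edgeR without the filter (0.0486) or with acinar level as a covariate (0.0417). Genotype was therefore read from the labels, since these counts per gene do not show the altered base or the null lesion. Wrap53, which starts head to head with Trp53 on the other strand, was at 15.3, 15.6 and 14.2 CPM in AD and 16.4, 13.9 and 14.8 CPM in Null.

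Across all genes, 3 of 20011 (0.0150%) passed an adjusted p of 0.05, and all 3 were higher in AD. At an unadjusted p under 0.05 there were 1219 (6.09%). The 3 called genes were Nlrp1b, Nlrp1c-ps and Ighv3-4. No gene was called lower in AD by edgeR, where 597 had an unadjusted p under 0.05 (2.98% of genes tested) and 622 lay higher at that threshold (3.11%). DESeq2 called 106 genes, 83 higher and 23 lower, among them the 3 of edgeR. The expression levels of every AD library were above those of every Null library for 1149 genes (5.74%) and below them for 1286 genes (6.43%). The biological coefficient of variation of the 6 libraries was 0.216.

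Nlrp1b (ENSMUSG00000070390.12, minus strand, chr11:71153102-71230733) encodes an inflammasome sensor that in mice responds to anthrax lethal toxin. It was at 17.4, 17.6 and 12.3 CPM in AD and 2.08, 1.07 and 1.48 CPM in Null. The AD mean was 15.8 ± 3.0 CPM and the Null mean 1.54 ± 0.506 CPM (SD, n = 3 each), a log2 fold change of 3.33 ± 0.25 SE with an edgeR adjusted p of 0.00186. The lowest AD library lay far above the highest Null library, and the call held in all 13 alternative fits.

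Nlrp1c-ps (ENSMUSG00000092528.9, minus strand, chr11:71242430-71285232), a transcribed pseudogene next to Nlrp1b, had 44, 77 and 58 counts in AD and 0 in each Null library. Against a floor of 3 counts over the Null group it was at least 54.7-fold higher in AD (edgeR adjusted p = 0.00879). The call was lost without AD-701, where the edgeR adjusted p was 0.165, although the Null libraries stayed at 0.

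Nlrp1a, the third gene of this cluster (ENSMUSG00000069830.10, minus strand, chr11:71092236-71144704) and also an inflammasome sensor, had 32, 51 and 26 counts in AD and 6, 4 and 3 in Null. Its log2 fold change was 2.99 ± 0.40 SE, with an edgeR adjusted p of 0.0669, and 3 of the 13 alternative fits called it. The 3 genes lie 1.5 to 1.65 Mb from Trp53 on chromosome 11 and are paralogues. In the GENCODE M21 transcripts, 1.21% of the 50-base words of Nlrp1b occur in Nlrp1a and 0.239% in Nlrp1c-ps, and 1.79% of those of Nlrp1a occur in Nlrp1b. Reads from these shared stretches could be assigned to either gene, and strain differences in this sequence were not analysed here.

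Within 2 Mb of Trp53, 127 genes were tested and 2 were called, Nlrp1b and Nlrp1c-ps, against 3 of all 20011 genes (0.0150%). Every AD library was above every Null library for 11 of the 127 and below for 7. Over all genes these shares were 5.74% and 6.43%. A further 2 genes there were chosen after their values were seen. Ccdc42, a coiled-coil protein gene of the testis, had 5, 6 and 2 counts in AD and 81, 27 and 101 in Null (log2 fold change -3.96 ± 0.50 SE, edgeR adjusted p = 0.0594). Of the 13 alternative fits 7 called Ccdc42 lower, among them DESeq2 (adjusted p = 3.95e-08) and edgeR with all 23 libraries (0.0196). Tnfsf13os, an antisense gene whose reads cannot be told from those of overlapping genes without strand, was at 3.35, 3.46 and 3.5 CPM in AD and 0.830, 1.19 and 1.67 CPM in Null (1.48 ± 0.26, edgeR adjusted p = 0.199). It was called in 3 of the 13 alternative fits. Neither gene's libraries overlapped between genotypes, and Ccdc42 was the only one of the pair with its levels lower in AD.

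**Figure D2:**
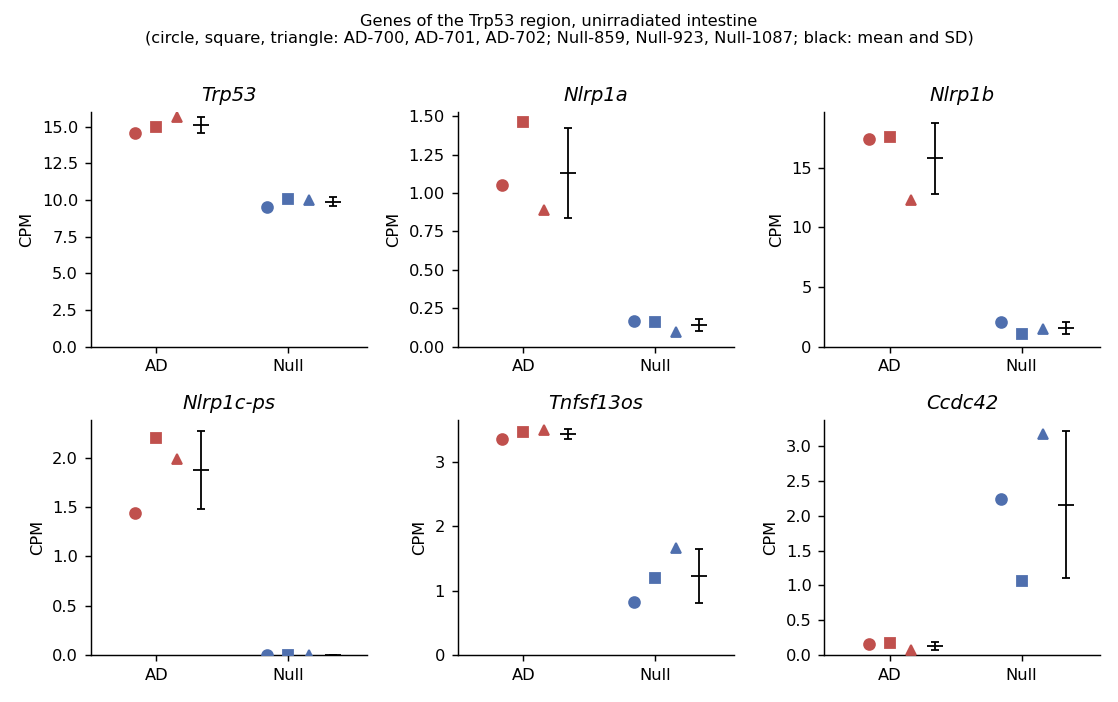
CPM of 6 genes of the Trp53 region in each library, AD left of Null, with the mean and SD in black. Nlrp1b lies at 12.3 to 17.6 CPM in AD and 1.07 to 2.08 CPM in Null, Nlrp1c-ps is at 0 in all Null libraries, and Ccdc42 is the gene with lower levels in AD.

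Ighv3-4 (ENSMUSG00000103939.1, minus strand, chr12:114253617-114254051) is an immunoglobulin heavy chain variable segment. It was at 3.21, 2.40 and 3.09 CPM in AD and 0.194, 0.119 and 0.126 CPM in Null, a log2 fold change of 4.24 ± 0.32 SE (edgeR adjusted p = 0.00186). Its mean level is under that required of genes named by rule, so it was chosen after its values were seen. Variable segments can share sequence with one another, and they were not compared here, so their counts are uncertain. Over 14 general markers of B and plasma cells the median log2 difference was 0.11, with none called and none under an unadjusted p of 0.05. That median was 0.56 without Null-1087, 0.30 without AD-701, 0.03 without Null-859, -0.07 without Null-923, -0.10 without AD-702, and -0.31 without both AD-702 and Null-923. The kappa segment Igkv1-135 was at 23.3, 37.2 and 37.5 CPM in AD and 15, 14.8 and 15.7 CPM in Null (1.11 ± 0.17, edgeR adjusted p = 0.199). Of 173 variable segments tested, DESeq2 called 7 higher and 6 lower in AD, against 83 higher and 23 lower of 20007 genes. The 6 lower segments included Igkv2-109 at -1.67 and Ighv1-26 at -1.05 on the log2 scale.

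The other genes with the smallest p-values were not called in the filtered edgeR fit of 6 libraries without a covariate, and their libraries did not overlap between genotypes. Ank3, which encodes the membrane scaffold ankyrin G, was at 135, 155 and 134 CPM in AD and 86.4, 72.1 and 71.3 CPM in Null. Its log2 fold change was 0.88 ± 0.11 SE, with an edgeR adjusted p of 0.0594, and 7 of the 13 alternative fits called it. Entpd7, a nucleoside triphosphate diphosphohydrolase, was at 190, 210 and 197 CPM in AD and 129, 118 and 139 CPM in Null (0.63 ± 0.10). Paox, a polyamine oxidase, had a log2 fold change of 0.68, and Ddx60, an interferon-inducible helicase, of 0.64. The predicted genes Gm3054 and Gm42941 were at 0.81 and 0.69. Each gene from Entpd7 to Gm42941 was called in 3 or 4 of the 13 alternative fits. Muc3, a membrane mucin whose values were seen before it was chosen, averaged 568 ± 75.4 CPM in AD and 333 ± 49.8 CPM in Null (SD, n = 3 each; edgeR adjusted p = 0.306). It was called in 3 of the 13 alternative fits, DESeq2 among them.

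Of the genes with lower levels in AD, Itpr1, the inositol trisphosphate receptor, was at 120, 104 and 114 CPM in AD and 171, 171 and 200 CPM in Null (log2 fold change -0.68 ± 0.10 SE, edgeR adjusted p = 0.139). It was called in 5 of the 13 alternative fits, among them edgeR with all 23 libraries (-0.67, adjusted p = 0.0313). Ypel2 was at 21.1, 19.6 and 20.2 CPM in AD and 31.4, 30 and 29.6 CPM in Null (-0.58 ± 0.09, edgeR adjusted p = 0.112), and 3 of the 13 alternative fits called it. Tymp, thymidine phosphorylase, had a log2 fold change of -0.84, the splicing factor gene Mfap1a of -0.62, and the matrix protein gene Spon2 of -0.62. Cnnm2, of magnesium transport, was at -0.49, the mitochondrial acyl-CoA thioesterase gene Acot2 at -0.56 and Gm1821 at -1.04. The edgeR adjusted p-values of these 6 were 0.199 to 0.370, and each was called in 1 to 3 of the 13 alternative fits. Both clock genes of this set, Cry1 and Arntl, are described below with their pathway.

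Of 57 tested p53 targets of 3 lists, 4 had an unadjusted p under 0.05 (7.02%, against 6.09% of all genes), and none was called by edgeR in the fit of the 6 intestine libraries. The tissue is a mixture of cell types, so fewer cells of a type and less RNA per cell cannot be told apart, here or in any list that follows. Of 27 tested targets of arrest and repair, none was called by edgeR or DESeq2, 3 had levels higher in AD at an unadjusted p under 0.05 and none lower, and the median log2 difference was 0.12 (0.08 without AD-702, and 0.05 without AD-702 and Null-923). Cdkn1a, the p21 cell cycle inhibitor, was at 52.8, 53.7 and 38.6 CPM in AD and 38.9, 30.2 and 43.4 CPM in Null. The groups overlapped, and the log2 difference of 0.37 had a 95% interval of -0.01 to 0.74 (edgeR adjusted p = 0.825). Without Null-923 it was 0.23. Mdm2, the ubiquitin ligase that limits p53, was at 75.9, 72.8 and 78.9 CPM in AD and 74.4, 69.5 and 71.3 CPM in Null (0.08, interval -0.10 to 0.26). Ccng1, a p53-induced cyclin, differed by 0.12 with an interval of -0.07 to 0.32. Plk3, a stress-responsive kinase, was at 18.7, 17.8 and 14.3 CPM in AD and 11.9, 8.35 and 12.7 CPM in Null (0.62 ± 0.17, edgeR adjusted p = 0.573), and Trp53inp1 had a log2 difference of 0.34 ± 0.11.

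Among 17 tested apoptosis targets none was called by edgeR or DESeq2 and none had an unadjusted p under 0.05, and 13 of the 17 log2 differences were negative, with a median of -0.13. Bax, the mitochondrial pore former, averaged 7.16 ± 0.41 CPM in AD and 8.25 ± 0.37 CPM in Null (SD, n = 3 each), with the groups apart. Bbc3, which encodes PUMA, had a log2 difference of -0.44 with an interval of -1.06 to 0.18, and was -0.20 without Null-1087 and -0.67 without Null-923. The death receptor gene Fas was at 27.8, 24.6 and 22.4 CPM in AD and 27.8, 30.2 and 28.9 CPM in Null. Of 14 tested metabolic targets none was called by edgeR in the fit of 6 libraries, 1 had an unadjusted p under 0.05, and the median was 0.02. That gene, Aldh4a1, encodes a mitochondrial enzyme of proline breakdown and was at 64.7, 49.9 and 60.3 CPM in AD and 33.2, 17.9 and 32.8 CPM in Null. Its log2 difference was 1.06 ± 0.25 SE (edgeR adjusted p = 0.604), and DESeq2 called it, the one metabolic target that it called. edgeR called it with all 23 libraries in one fit (1.07, adjusted p = 0.00662) and without AD-702 and Null-923 (0.80, adjusted p = 0.0412). The family members Trp63 and Trp73 had at most 10 counts per library and were not tested.

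Lipid genes gave no call in the filtered edgeR fit of 6 libraries, and DESeq2 called Acot2 and Abca1. PPAR receptors are nuclear receptors that raise genes of fatty acid use. Of 45 tested PPAR targets 1, Acot2, had an unadjusted p under 0.05, with a level lower in AD, and the median log2 difference was 0.01. Cpt1a, the carnitine transferase that admits fatty acids to mitochondria, was at 238, 235 and 236 CPM in AD and 213, 273 and 219 CPM in Null (0.01, 95% interval -0.25 to 0.28). Ppargc1a, a coactivator of mitochondrial genes, was at 93.0, 92.2 and 90.4 CPM in AD and 77.0, 70.7 and 66.1 CPM in Null (0.37 ± 0.09, edgeR adjusted p = 0.453), and Ppara itself had a log2 difference of 0.24 ± 0.09. For both genes every AD library was above every Null library, as for 5.74% of all genes. Of 25 genes of cholesterol synthesis none was called by edgeR with the filter or by DESeq2. Without the filter edgeR called Nsdhl lower (adjusted p = 0.0499). At an unadjusted p under 0.05, 4 of the 25 were lower in AD, against 2.98% of all genes. Nsdhl, Pmvk and Acat2, enzyme genes among them, had log2 differences of -0.52, -0.50 and -0.32. The list's median was -0.02, and Hmgcs1, early in the pathway, was at 0.13. Among 19 lipid absorption genes the cholesterol exporter gene Abca1 was at 27.1, 31.0 and 34.2 CPM in AD and 22.6, 22.3 and 20.7 CPM in Null (0.49 ± 0.11, edgeR adjusted p = 0.396), while Apob, the chylomicron scaffold, overlapped (0.07 ± 0.20).

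**Figure D3:**
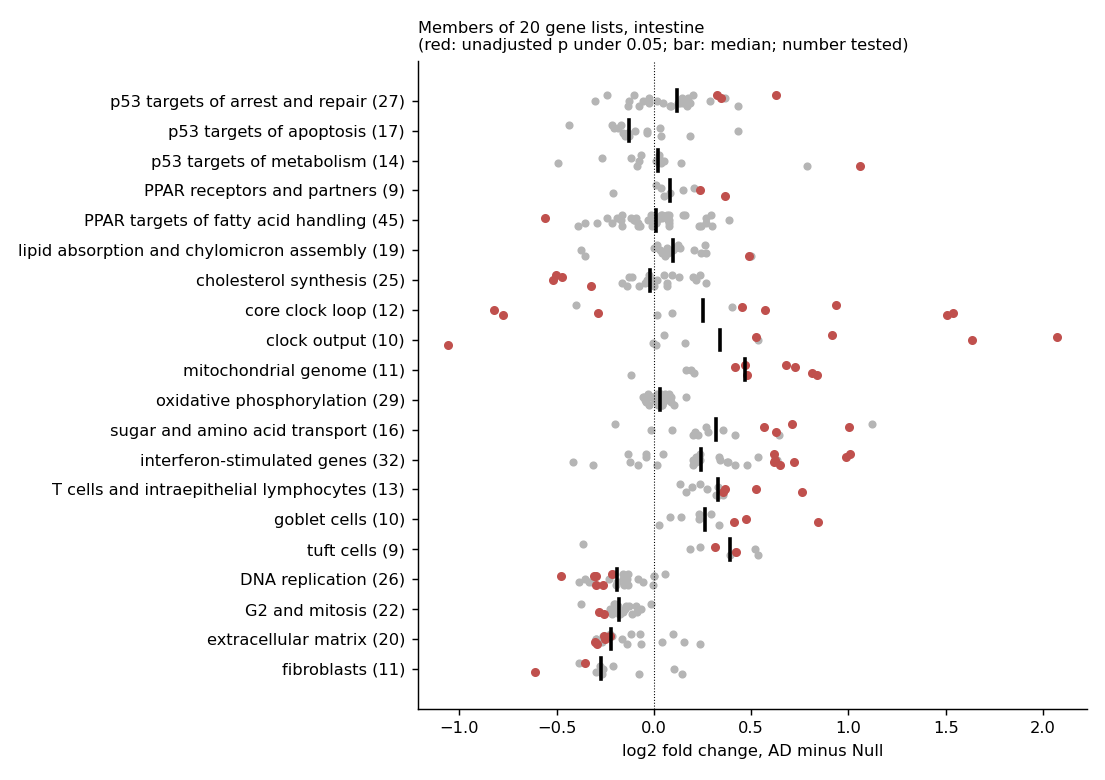
Log2 fold change, AD minus Null, of the tested members of 20 gene lists in intestine, with the number tested in brackets, members under an unadjusted p of 0.05 in red and the median as a bar. Clock genes spread from -1.06 to 2.07, mitochondrial genome genes centre on 0.47, and p53 target medians lie between -0.13 and 0.12.

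Circadian clock genes had log2 differences between -1.06 and 2.07 in intestine, in both directions. Harvest time of day, with which these genes vary, is not in the labels, so it cannot be told apart from genotype in what follows. CLOCK and BMAL1, the product of Arntl, drive the Per, Cry and Nr1d genes through E-boxes. PER and CRY proteins then repress CLOCK and BMAL1, REV-ERB proteins from Nr1d1 and Nr1d2 repress Arntl and Nfil3, and DBP, TEF and HLF act on D-boxes of output genes. Sequences in the RefSeq promoter table (GRCm38.p6, 250 bases before to 50 after a start) are shown for 4 of these genes as examples of each element. Capitals mark CACGTG (an E-box), TTATGTAA or TTACGTAA (a D-box) and AGGTCA (the core motif of REV-ERB and ROR receptors), each searched on both strands.
Tef, chr15:81802423-81802722, plus strand: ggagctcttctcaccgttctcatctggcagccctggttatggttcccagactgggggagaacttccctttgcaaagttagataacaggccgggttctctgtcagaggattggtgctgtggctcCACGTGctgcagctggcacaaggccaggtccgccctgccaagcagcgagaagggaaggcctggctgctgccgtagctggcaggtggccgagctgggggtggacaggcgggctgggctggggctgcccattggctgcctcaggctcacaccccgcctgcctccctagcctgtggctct
Per3, chr4:151044616-151044915, minus strand: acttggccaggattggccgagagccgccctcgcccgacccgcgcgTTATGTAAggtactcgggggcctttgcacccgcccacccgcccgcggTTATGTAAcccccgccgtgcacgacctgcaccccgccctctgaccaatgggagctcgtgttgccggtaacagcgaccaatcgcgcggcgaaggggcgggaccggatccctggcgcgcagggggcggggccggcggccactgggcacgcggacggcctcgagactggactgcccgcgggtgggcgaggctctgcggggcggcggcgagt
Cry1, chr10:85185005-85185304, minus strand: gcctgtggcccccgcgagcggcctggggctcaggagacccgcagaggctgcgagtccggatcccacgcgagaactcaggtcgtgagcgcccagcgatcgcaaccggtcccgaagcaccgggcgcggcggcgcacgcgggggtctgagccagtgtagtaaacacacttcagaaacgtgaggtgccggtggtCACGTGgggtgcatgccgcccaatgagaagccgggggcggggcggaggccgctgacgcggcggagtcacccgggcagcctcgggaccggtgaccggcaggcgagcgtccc
Nfil3, chr13:52980990-52981289, minus strand: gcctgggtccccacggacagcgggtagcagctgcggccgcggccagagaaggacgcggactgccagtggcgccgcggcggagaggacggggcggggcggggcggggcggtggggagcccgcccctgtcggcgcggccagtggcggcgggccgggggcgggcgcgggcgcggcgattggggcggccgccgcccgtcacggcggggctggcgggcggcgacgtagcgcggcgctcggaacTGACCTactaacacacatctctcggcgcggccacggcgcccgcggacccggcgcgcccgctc

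Tef and Cry1 each hold 1 E-box in these windows, Per3 holds 2 copies of the D-box, and Nfil3 holds AGGTCA on the reverse strand. Of the 22 clock genes listed, 18 had an entry, with 23 promoters among them. CACGTG was in 6 of these 23 and in 7.15% of all 32851 promoters, the D-box in 1 and 1.06%, and AGGTCA in 5 and 16.3%. A match is a description of these letters and not a bound site.

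The D-box factor genes and the Nr1d pair had the higher levels in AD. Dbp was at 5.28, 4.15 and 8.88 CPM in AD and 1.36, 0.871 and 2.08 CPM in Null, a log2 fold change of 2.07 ± 0.38 SE (edgeR adjusted p = 0.306). Tef was at 42.4, 36.6 and 55.6 CPM in AD and 11.7, 11.2 and 20.3 CPM in Null (1.64 ± 0.28, edgeR adjusted p = 0.403). In both genes the lowest AD library was well above the highest Null library. Nr1d2, which encodes REV-ERB beta, was at 63.6, 50.9 and 75.4 CPM in AD and 22.7, 15.2 and 27.5 CPM in Null (1.54 ± 0.25, edgeR adjusted p = 0.344). Nr1d1, for REV-ERB alpha, was at 36.3, 36.3 and 41.2 CPM in AD and 17.2, 6.41 and 16.3 CPM in Null (1.5 ± 0.38, edgeR adjusted p = 0.742). Per3, the gene with 2 D-boxes above, was at 7.51, 8.23 and 13.9 CPM in AD and 5.04, 5.26 and 5.2 CPM in Null (0.94 ± 0.22). AD-702 gave the highest value of all 6 libraries for each of these 5 genes. Without AD-702 and Null-923, the pair richest in pancreatic RNA, the log2 differences were 1.46 for Dbp, 1.31 for Tef, 1.19 for Nr1d2, 1.12 for Nr1d1 and 0.62 for Per3. For Per3 the difference was 0.62 without AD-702 alone as well. The Nr1d2 and Nr1d1 differences were called there, with edgeR adjusted p-values of 0.00324 and 0.00113.

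Arntl, Nfil3 and Cry1 had lower levels in AD. Arntl was at 50.4, 46.4 and 32.7 CPM in AD and 77.5, 75.0 and 69.0 CPM in Null (log2 fold change -0.77 ± 0.15 SE, edgeR adjusted p = 0.306). Nfil3, a repressor at D-boxes, was at 17.0, 13.8 and 6.86 CPM in AD and 23.8, 30.4 and 24.3 CPM in Null (-1.06 ± 0.34, edgeR adjusted p = 0.787). Cry1, a repressor of CLOCK and BMAL1, was at 13.7, 12.3 and 12.4 CPM in AD and 17.4, 25.3 and 25.2 CPM in Null (-0.82 ± 0.15, edgeR adjusted p = 0.199). None of these groups overlapped. Without AD-702 and Null-923 the differences were -0.60 for Arntl, -0.65 for Nfil3 and -0.72 for Cry1. The other Cry gene, Cry2, lay the other way, at 11.1, 9.29 and 9.57 CPM in AD and 6.5, 7.6 and 7.78 CPM in Null (0.45 ± 0.14, edgeR adjusted p = 0.727). Clock itself was at 161, 161 and 165 CPM in AD and 151, 156 and 148 CPM in Null (0.09 ± 0.09), and Per2 overlapped between genotypes.

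Over the 12 core loop genes, 5 were higher and 3 lower in AD at an unadjusted p under 0.05, against 3.11% and 2.98% of all genes. Of the 10 output genes 4 were higher and 1 lower. None of the 22 was called by edgeR in the fit of 6 libraries, while DESeq2 called 8, against 106 of 20007 genes. These were Nr1d2, Nr1d1, Per3, Tef and Dbp higher, and Cry1, Arntl and Nfil3 lower. With the acinar covariate edgeR called Cry1 (adjusted p = 0.0445) and Arntl (0.0221), as it did without the filter (0.00303 and 0.0257). It also called Cry1 without Null-859 (0.0307), Tef without Null-1087 (0.014) and Nr1d1 without Null-923 (0.00128). In the fit of all 23 unirradiated AD and Null libraries, edgeR called Dbp (adjusted p = 0.00522), Tef (0.00212) and Nr1d2 (0.000123) in intestine.

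**Figure D4:**
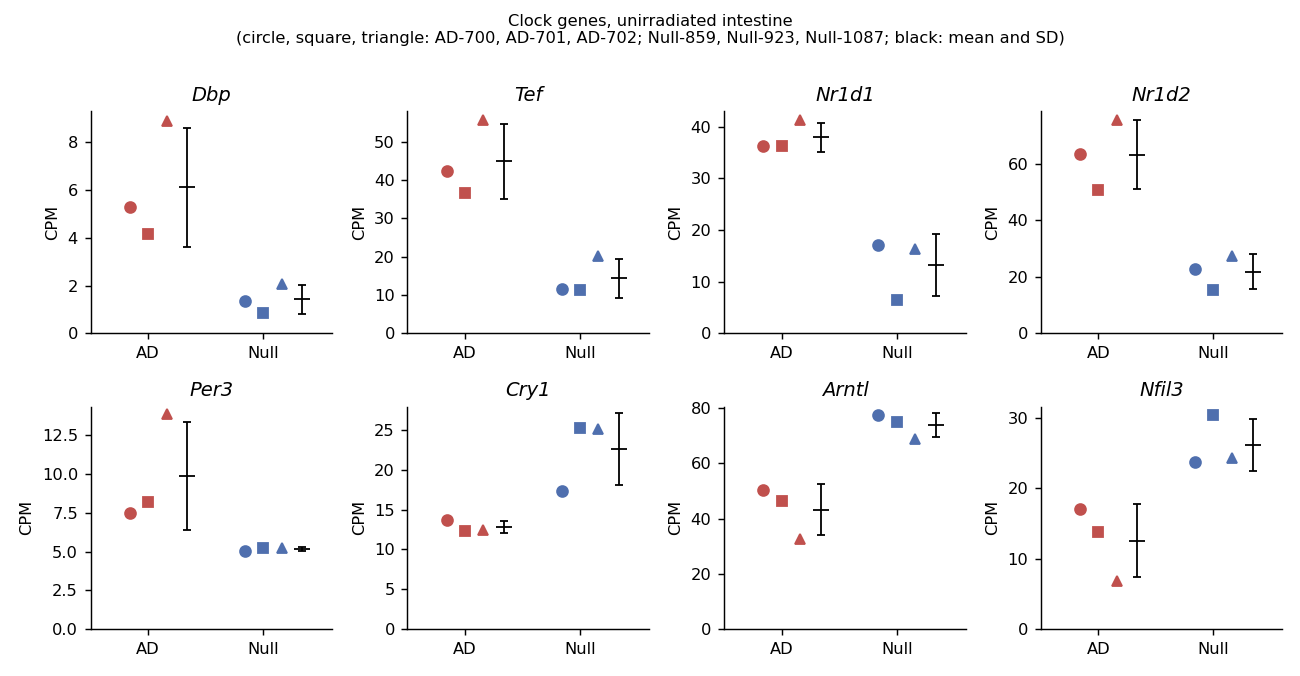
CPM of 8 clock genes in each intestine library, AD left of Null, with the mean and SD in black. The 5 genes Dbp, Tef, Nr1d1, Nr1d2 and Per3 have every AD library above every Null library, and Cry1, Arntl and Nfil3 have every AD library below.

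Genes encoded by the mitochondrial genome had higher levels in AD, while the median of their nuclear partners was near 0. Of 11 tested protein genes 7 had an unadjusted p under 0.05, all higher (3.11% of all genes were), and the median log2 difference was 0.47. None was called by edgeR in the fit of 6 libraries, and DESeq2 called 4, all higher, against 83 higher of 20007 genes. mt-Nd2, a subunit of complex I, was at 79.0, 86.7 and 102 CPM in AD and 52.8, 49.4 and 50.5 CPM in Null (0.81 ± 0.11 SE, edgeR adjusted p = 0.0606). mt-Nd5, of the same complex, was at 314, 289 and 309 CPM in AD and 161, 200 and 209 CPM in Null (0.68 ± 0.12, edgeR adjusted p = 0.199). Among the 13 alternative fits, DESeq2 included, mt-Nd2 was called in 6 and mt-Nd5 in 3. mt-Co1, the most abundant, was at 11600, 10500 and 10300 CPM in AD and 9530, 8750 and 9760 CPM in Null (0.21 ± 0.17). Copies of mitochondrial genes in the nuclear genome could take some of these reads. Of 29 nuclear genes of oxidative phosphorylation none had an unadjusted p under 0.05 and none was called by edgeR or DESeq2, with log2 differences of -0.06 to 0.16 and a median of 0.03.

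Of 16 carriers of sugars and amino acids, 4 had levels higher in AD at an unadjusted p under 0.05, against 3.11% of all genes. Slc5a1, the sodium-coupled glucose transporter SGLT1 of the brush border, was at 4200, 3370 and 3010 CPM in AD and 2130, 1230 and 1920 CPM in Null (log2 fold change 1.0 ± 0.23 SE, edgeR adjusted p = 0.413). Slc2a2, the basolateral GLUT2, was at 791, 740 and 676 CPM in AD and 537, 375 and 577 CPM in Null (0.57 ± 0.17). The amino acid carriers Slc6a19 and Slc7a8 had log2 differences of 0.63 and 0.71. With the filter and no covariate none was called by edgeR, DESeq2 called Slc5a1, edgeR without the filter called it too (adjusted p = 0.0338), and the list's median was 0.32. The brush border disaccharidases Sis and Mgam had log2 differences of 0.62 ± 0.21 and 0.63 ± 0.17, with edgeR adjusted p-values of 0.749 and 0.542. DESeq2 called both higher in AD (adjusted p = 0.0497 for Sis and 6.18e-07 for Mgam). The 6 adult enterocyte genes that include this pair had a median of 0.07, with 3 positive and 3 negative, and the 15 enterocyte markers one of 0.08. Lct, the lactase of suckling animals, overlapped at 3590, 2650 and 2320 CPM in AD and 3530, 1570 and 2790 CPM in Null. Null-923, with 64600 CPM of acinar transcripts, was the lowest library for each of Slc5a1, Slc2a2, Slc6a19, Slc7a8 and Lct. Without it the transport list's median was 0.12, leaving out AD-700 gave 0.20, leaving out Null-859 gave 0.60, and leaving out AD-702 with Null-923 gave 0.16. With acinar level as a covariate the list's median was 0.46, and edgeR called Slc5a1 (1.05, adjusted p = 0.0133).

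Goblet, tuft and lymphocyte markers had positive list medians of 0.26 to 0.39. All 10 goblet markers had positive log2 differences with a median of 0.26 (0.17 without Null-923), and 3 had an unadjusted p under 0.05, against 3.11% of all genes that were higher at that threshold. The antimicrobial gene Ang4 was at 178, 234 and 142 CPM in AD and 135, 77.5 and 96.6 CPM in Null (0.84 ± 0.26, edgeR adjusted p = 0.750), and DESeq2 called it. Clca1, secreted with mucus, had a log2 difference of 0.47 ± 0.16, and the main mucin gene Muc2 of 0.33 ± 0.19. Of 9 tested tuft markers 2, the taste channel gene Trpm5 (0.32 ± 0.13) and Rgs13 (0.42 ± 0.17), had an unadjusted p under 0.05, and the median was 0.39. Without AD-701 the tuft median was 0.25. All 13 markers of T cells and intraepithelial lymphocytes had positive differences, 4 at an unadjusted p under 0.05, with a median of 0.33. Gzma, a granule protease, was at 121, 108 and 94.6 CPM in AD and 86.8, 76.5 and 87.8 CPM in Null (0.36 ± 0.11, edgeR adjusted p = 0.695). Cd8a, the coreceptor of cytotoxic T cells, had a difference of 0.35 ± 0.14. The summed level of the lymphocyte list was 241 to 299 CPM in AD and 182 to 237 CPM in Null, and its median was 0.19 without Null-923. No marker of these 3 lists was called by edgeR. Paneth cell markers gave a median of 0.21 over 10 genes with none under an unadjusted p of 0.05, and 0.09 without Null-923, 0.14 without AD-700, 0.06 without AD-702 and Null-923. The 14 enteroendocrine markers had a median of -0.03, with 8 negative and none under an unadjusted p of 0.05.

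Of 32 tested interferon-stimulated genes, 7 had a level higher in AD at an unadjusted p under 0.05 and none lower, against 3.11% and 2.98% of all genes, and the median was 0.24 (0.15 without Null-923). In the fit of 6 libraries edgeR called none, and DESeq2 called 4, all higher, against 83 higher of 20007 genes. Oas3, a sensor of double-stranded RNA, was at 50.9, 46.0 and 41.1 CPM in AD and 31.7, 14.6 and 23.1 CPM in Null (0.99 ± 0.28 SE, edgeR adjusted p = 0.742). Usp18, which removes ISG15 from proteins, was at 26.3, 21.8 and 16.2 CPM in AD and 15.3, 6.89 and 9.61 CPM in Null (1.01 ± 0.33, edgeR adjusted p = 0.787). In neither gene did the AD and Null libraries overlap. With acinar level as a covariate, edgeR called 7 of the list, Isg15, Oas1a, Oas1g, Oas3, Oasl2, Rtp4 and Usp18. All 7 were higher in AD, where that fit called 41 of 20011 genes higher.

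Lists of proliferation, matrix and fibroblast genes had medians of -0.18 to -0.27, and 2.98% of all genes were lower in AD at an unadjusted p under 0.05. Of 26 DNA replication genes 6 had an unadjusted p under 0.05, all with levels lower in AD, and the median was -0.19 (-0.12 without AD-701). Pole, the catalytic subunit of leading strand polymerase, was at 23.3, 22.1 and 25.1 CPM in AD and 29.8, 29.7 and 27.8 CPM in Null (-0.31 ± 0.09 SE, edgeR adjusted p = 0.653). The helicase genes Mcm2 and Mcm5 had differences of -0.26 and -0.30. All 22 genes of G2 and mitosis had negative differences, 2 of them at an unadjusted p under 0.05, with a median of -0.18 (-0.12 without AD-701). Mki67, a mark of cycling cells, was at 331, 302 and 331 CPM in AD and 357, 350 and 333 CPM in Null (-0.11 ± 0.11). The stem cell genes Lgr5 and Olfm4 overlapped between genotypes, with differences of -0.26 and -0.08. Of 20 extracellular matrix genes 5 had an unadjusted p under 0.05, with levels lower in AD and a median of -0.22, which was -0.11 without AD-700 and -0.14 without Null-923. Mmp2, a gelatinase, was at 34, 40.4 and 35.2 CPM in AD and 43.2, 47.4 and 44.0 CPM in Null (-0.29 ± 0.10, edgeR adjusted p = 0.742). Fibroblast markers, at 1440 to 1860 CPM in sum in AD and 1830 to 2120 CPM in Null, had a median of -0.27 (-0.14 without AD-700). No gene of these lists was called by edgeR or DESeq2 in the fit of 6 libraries, while with acinar level as a covariate edgeR called the fibroblast marker Lum lower (-0.66, adjusted p = 0.0411).

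A few single genes had large but variable differences. Aqp8, a water channel and a member of the colon list, was at 6.49, 10.7 and 14.5 CPM in AD and 23.6, 51.1 and 47.9 CPM in Null (log2 fold change -1.95 ± 0.45 SE, edgeR adjusted p = 0.700). It was the lowest of the 7 tested colon genes, whose median log2 difference was 0.69. Mt1, a metallothionein that binds zinc and copper, was at 52.7, 53.6 and 92.9 CPM in AD and 28.7, 37.5 and 27.1 CPM in Null (1.10 ± 0.27, edgeR adjusted p = 0.636). Cyp1a1, a target of the aryl hydrocarbon receptor, was at 15, 11.3 and 16.8 CPM in AD and 19.3, 39.1 and 77.8 CPM in Null (-1.66 ± 0.59). Abcc2, an apical exporter of conjugates, was at 344, 369 and 345 CPM in AD and 276, 188 and 202 CPM in Null (0.67 ± 0.15, edgeR adjusted p = 0.403). In these 4 genes the groups did not overlap, and DESeq2 called Aqp8, Mt1 and Abcc2. With acinar level as a covariate edgeR called Aqp8 (adjusted p = 1.31e-05) and Abcc2 (0.0411). Duox2, an epithelial oxidase, overlapped between genotypes: AD-701 alone had 120 CPM, against 37.9 and 9.94 CPM in the other AD libraries and 3.65 to 11.1 CPM in Null.

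Liver, pancreas and thymus of the same mice were used to see where intestine differed. In one fit of 23 unirradiated libraries the AD minus Null difference in intestine was set against the mean of the differences in the other 3 tissues, and 2 of 24431 genes were called (0.00819%). Both differences were higher in intestine. Pla2g4c, a cytosolic phospholipase A2 gene (ENSMUSG00000033847.15, plus strand, chr7:13324655-13360672), was at 19.2, 35.6 and 12.2 CPM in AD intestine and 2.57, 2.45 and 1.64 CPM in Null intestine. Within the 6 intestine libraries its log2 fold change was 3.33 ± 0.49 SE and was not called (edgeR adjusted p = 0.370). In the joint fit it was -3.41 ± 1.04 in liver, -1.09 ± 0.67 in pancreas and -0.60 ± 0.34 in thymus, none of them called. The intestine difference exceeded their mean by 5.04 ± 0.51 (edgeR adjusted p = 1.63e-05). In the joint scaling liver held little of the transcript, at 0, 0.0442 and 0 CPM in AD and 0.123, 0.183 and 0.271 CPM in Null, so its fitted liver value depends on the fit's handling of 0.

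Nlrp1b showed the same contrast, 3.08 ± 0.36 log2 units above the mean of the other tissues (edgeR adjusted p = 0.000101). In the joint fit its log2 fold change was 3.35 in intestine, -1.12 in liver, 1.07 in pancreas and 0.85 in thymus, and among these the intestine value alone was called. Nlrp1c-ps had positive fitted differences in all 4 tissues and was called in intestine and thymus in that fit (edgeR adjusted p = 3.93e-05 and 0.00151).

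No clock gene was called in this contrast, and for 19 of 22 the estimate in liver of the same mice was farther from 0 than in intestine. Cry1 (-0.81 in intestine, -0.66 in liver) and Hlf (0.92 and 0.43) were among the exceptions. Dbp had a log2 fold change of 4.93 ± 0.38 SE in liver (edgeR adjusted p = 7.38e-08), 0.44 in pancreas and 0.19 in thymus, against 2.07 in intestine. Nr1d2 was at 2.04 in liver, 1.55 in pancreas and 0.06 in thymus, and Arntl at -1.05, -0.51 and 0.11. Tef was at 1.81 in liver, 0.66 in pancreas and 0.23 in thymus. Intestine minus the mean of the others was 0.22 ± 0.39 for Dbp, 0.32 ± 0.21 for Nr1d2 and 0.74 ± 0.26 for Tef, with edgeR adjusted p-values of 1. In the joint fit 10 genes were called in intestine (0.0409%), 151 in liver (0.618%), 18 in pancreas (0.0737%) and 61 in thymus (0.250%), and thymus had 5 libraries where the other tissues had 6.

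**Figure D5:**
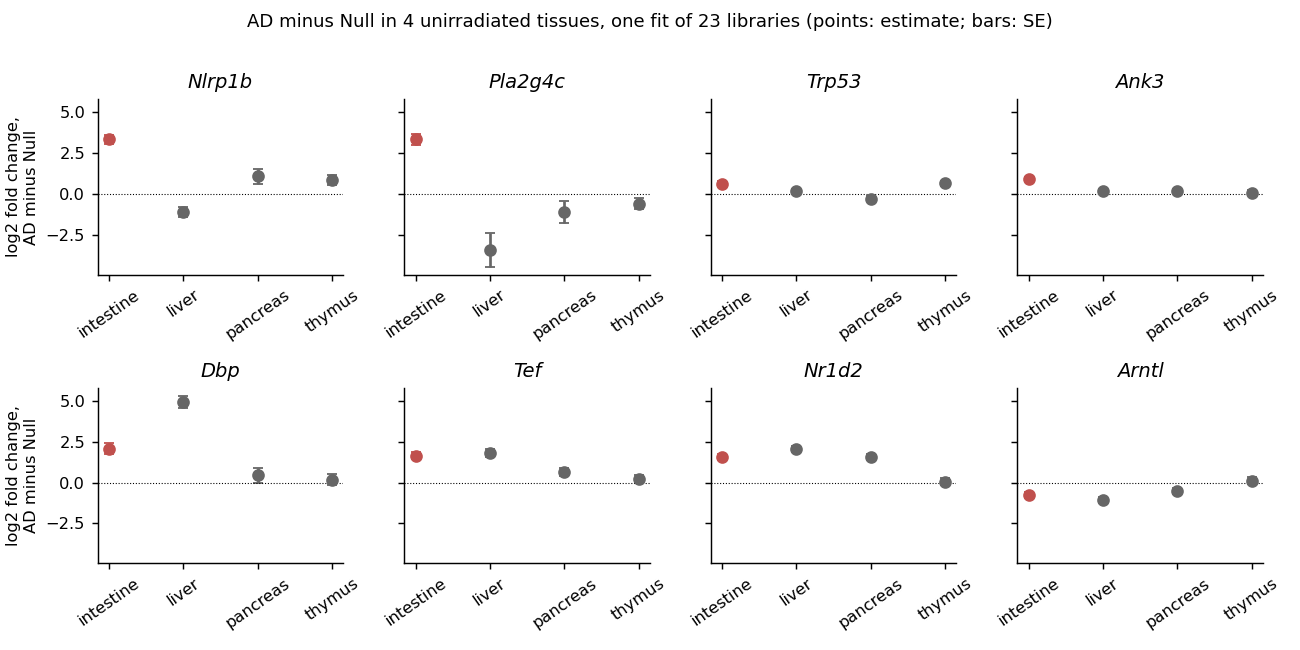
Log2 fold change, AD minus Null, with its SE for 8 genes in 4 unirradiated tissues from one fit of 23 libraries, intestine in red. Nlrp1b and Pla2g4c stand at 3.35 and 3.34 in intestine and at or below 1.07 elsewhere, while Dbp, Tef, Nr1d2 and Arntl have values in liver of the same sign as in intestine.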

How the data were processed

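RNA sequencing counts were analysed for intestine of 3 AD and 3 Null mice, one library each, and for liver, pancreas and thymus of the same animals. The table deposited by the authors holds whole-number counts, with 42 columns and 49585 genes. The submitters' processing notes name STAR 2.6.0b, DESeq2 and the build GRCm38. How reads were counted, with which annotation and strand setting, is not given in the sources used here. Each column name holds the animal number and genotype and, except in basal thymus, the tissue; a basal thymus column is the one left for its animal. GENCODE M21 matched 49326 identifiers and missed 259.

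Counts were filtered with filterByExpr (minimum count 10), scaled by TMM and tested with the quasi-likelihood method of edgeR 4.0.16, robust option on (R 4.3.3, limma 3.58.1), with Benjamini-Hochberg adjustment over all genes tested and a call at an adjusted p under 0.05. CPM values are counts scaled to TMM-adjusted library sizes. The intestine fit held 6 libraries and no covariates, and the tissue contrast held 23. The fit was tested on simulated data. Alternatives were DESeq2 1.42.0, RLE scaling, no filter, an Xist covariate, each library left out, all 23 libraries in one fit and, chosen after seeing the data, an acinar covariate and leaving out AD-702 with Null-923. Named genes were Trp53, called genes with an average of at least 1 log2 CPM, the smallest p-values up to 10 in each direction, and members of 60 gene lists. Members and lists were chosen with earlier results of these data known. In the intestine fit each library is one animal, and p-values rest on the spread between the 3 animals of a genotype. The fit of 23 libraries had no term for mouse. Tissues of one mouse entered it as separate libraries, and the spread was estimated over all tissues together. Tissues pair by animal number in the labels, since each number is one mouse: over 10060 genes, deviations from group means correlated between intestine and another tissue of the same mouse by -0.015 to 0.443 (median 0.135, 17 pairs). At 24.3e6 to 34.8e6 counts per library, the floor of 3 counts covers counting error alone.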

Additional observations from a re-analysis of the deposited data

Results flagged for a closer look

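The AD minus Null difference in intestine departed from the mean difference in liver, pancreas and thymus of the same mice for 2 genes. For Pla2g4c it was 5.04 log2 units higher in intestine, and in liver the transcript was near 0 in both genotypes. Among the alternatives this contrast lay between 4.54 and 5.35 for Pla2g4c, and AD-701 held the highest intestine value. For Nlrp1b the contrast was 3.08 log2 units, and between 2.88 and 3.36 among the alternatives. No test for outlying samples was run within a group of 3 libraries, although each intestine library was left out in turn.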

How the results depend on the processing

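The intestine comparison gave 3 calls as reported, and most alternatives gave more. The count was 6 with RLE scaling, 50 without the filter (38 higher, 12 lower), 106 with DESeq2 (83 higher, 23 lower) and 10 with all 23 libraries in one fit. It was 54 with the acinar covariate (41 higher, 13 lower) and 33 without AD-702 and Null-923 (27 higher, 6 lower), both chosen after seeing the data. An Xist covariate left 3. Leaving out one library gave 3 to 8 calls: 8 without AD-700, 3 without AD-701, 5 without AD-702, 8 without Null-859, 5 without Null-923 and 8 without Null-1087. The cause was not tested. Nlrp1b was called in 13 of 13 alternatives. Nlrp1c-ps was lost without AD-701 and Ighv3-4 in the fit of 23 libraries (adjusted p = 0.0535). Of 39 named genes none but Xaf1, which lies near Trp53 and was not called, changed direction: its log2 difference was 0.11 without Null-859, against -0.08 with every library and -0.26 without Null-923. Over these genes and alternatives, 422 values kept their direction and side of the threshold, 81 passed it that had not, and 2 no longer did. The contrast with the other tissues gave 2 calls, 25 with DESeq2, 2 with RLE scaling and without the filter, and 2 to 4 with one intestine library left out (4 without Null-1087). With mouse as a replicate block it gave 3. For intestine alone, no paired analysis was possible because AD and Null mice share no replicate number. No scaling moved the median of all genes by more than 0.01 log2 units. Counts near the floor limit Nlrp1a, Nlrp1c-ps, Ighv3-4 and Ccdc42.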
